A study of Homo sapiens with 8 samples.

Results

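Of 129052 accessible regions merged from 4 ATAC-seq peak lists of U2OS cells, 80119 had a peak in every list, and 3866 of these shared regions (4.83%) ranked lower after Orc6 knockdown both without and with H2O2. They were selected on peak signal, the value that the authors' peak caller gave each peak: each peak was ranked by signal within its own list on a scale from 0 (weakest) to 100 (strongest), the best peak stood for a region, and a region was kept when its percentile in siOrc6 was at least 15 points below that in siGl3 in each treatment. These 3866 regions are called the weakened regions here, as a name for the rule. For comparison, 1359 shared regions (1.70%) met the same rule in the other direction and are called the strengthened regions.

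ATAC-seq measures open chromatin through a transposase that cuts and tags accessible DNA. All cells were U2OS, an established human osteosarcoma line, transfected for 72 h with an siRNA against Orc6 (siOrc6) or the control siRNA siGl3, and every group was synchronised by a double thymidine block with release for 3 h, which places the cells in early S phase. The 4 groups were untreated siGl3, untreated siOrc6, and each of these after 30 min in 5 mM H2O2. Each group had 2 libraries, numbered by batch in the labels, but 1 peak list whose name carries both numbers, so that no value per library was used, the depth behind each peak is unknown, and the spread between libraries cannot be given. The cell line is 1 background, the labels do not say whether libraries came from separate cultures, and Orc6 mRNA was not measured in these files, so they do not show how far Orc6 was reduced. No difference below was tested across samples, and every comparison is a description of these 4 lists.

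Orc6 is a small subunit of the origin recognition complex, which marks the sites where DNA replication starts and helps to load the replicative helicase. The series title names ISWI, a family of ATP-driven remodellers that slide and space nucleosomes around an ATPase such as SMARCA5, and asks about its association with Orc6 in S phase under DNA damage. Open chromatin comes mainly as promoters, which often lie in CpG-rich stretches and are open in many cell types, and as distal elements such as enhancers, which are bound by factors particular to a cell type or a signal.

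Of the 3866 weakened regions, 35 reached a promoter window, and these windows lay mostly in sequence poor in CpG, the dinucleotide that marks such promoters. RefSeq promoter windows (GRCh38.p14, the same build as the deposited hg38 coordinates), each running from 250 bases before to 50 after a gene's start, were touched by a weakened region at 37 places, in 35 genes. For 21 of these windows the whole window lay inside the region. The 4 of those 21 with the largest mean difference are shown first as the 250 bases before the start, 5′ to 3′ on the gene's strand, with CpG in capitals. ADGRA1 is added as the member with the most CpG, and ORC6, whose promoter was no member, as a CpG-rich comparison. These genes were chosen after their values were seen.
GGT1 (chr22:24583500-24583749, plus strand): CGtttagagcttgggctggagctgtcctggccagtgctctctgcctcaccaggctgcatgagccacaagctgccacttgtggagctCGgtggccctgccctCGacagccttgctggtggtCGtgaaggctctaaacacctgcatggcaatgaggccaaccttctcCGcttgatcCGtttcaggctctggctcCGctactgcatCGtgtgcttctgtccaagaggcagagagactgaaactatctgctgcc
CHI3L1 (chr1:203186705-203186954, minus strand): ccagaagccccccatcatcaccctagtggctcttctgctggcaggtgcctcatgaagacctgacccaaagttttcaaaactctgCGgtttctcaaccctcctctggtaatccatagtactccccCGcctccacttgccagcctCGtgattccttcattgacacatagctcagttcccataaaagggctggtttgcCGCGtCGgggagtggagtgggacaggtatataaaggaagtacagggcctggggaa
TMEM190 (chr19:55376576-55376825, plus strand): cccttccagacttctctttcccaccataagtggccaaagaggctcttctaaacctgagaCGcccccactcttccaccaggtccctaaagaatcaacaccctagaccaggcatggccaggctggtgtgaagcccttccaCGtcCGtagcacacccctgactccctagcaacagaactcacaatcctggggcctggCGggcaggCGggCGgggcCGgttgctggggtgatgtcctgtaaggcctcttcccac
CYTH3 (chr7:6172138-6172387, minus strand): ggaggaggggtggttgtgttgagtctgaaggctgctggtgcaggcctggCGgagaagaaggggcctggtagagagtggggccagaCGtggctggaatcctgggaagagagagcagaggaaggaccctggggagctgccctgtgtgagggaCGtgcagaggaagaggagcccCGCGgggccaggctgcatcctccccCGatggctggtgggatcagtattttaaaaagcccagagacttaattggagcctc
ADGRA1 (chr10:133087674-133087923, plus strand): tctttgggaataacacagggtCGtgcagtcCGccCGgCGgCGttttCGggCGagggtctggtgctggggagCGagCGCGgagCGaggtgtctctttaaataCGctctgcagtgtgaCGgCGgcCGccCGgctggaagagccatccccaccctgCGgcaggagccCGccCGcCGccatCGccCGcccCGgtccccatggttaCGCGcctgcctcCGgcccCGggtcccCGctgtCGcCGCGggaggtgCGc
ORC6 (chr16:46689409-46689658, plus strand): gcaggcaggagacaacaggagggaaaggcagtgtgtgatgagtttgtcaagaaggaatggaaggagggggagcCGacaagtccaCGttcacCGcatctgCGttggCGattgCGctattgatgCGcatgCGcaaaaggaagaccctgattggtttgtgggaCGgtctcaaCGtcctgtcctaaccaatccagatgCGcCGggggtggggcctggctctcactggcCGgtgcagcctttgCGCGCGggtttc

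Counted over the printed 250 bases, GGT1 held 8 CpG, CHI3L1 6, TMEM190 7 and CYTH3 6, against 16 at ORC6 and 32 at ADGRA1. GGT1 encodes a gamma-glutamyltransferase that cleaves extracellular glutathione, and its region (chr22:24583233-24585788) had peak signals of 918 in untreated siGl3, 330 in untreated siOrc6, 1479 in siGl3 with H2O2 and 422 in siOrc6 with H2O2. The lists held 2, 1, 1 and 2 peaks in this region in the same order. GGT1 has close relatives in the genome, and the handling of reads that match several places is unknown here. At CHI3L1, which encodes a secreted chitinase-like glycoprotein, the 4 signals in the same order were 1840, 478, 3097 and 1438. At CYTH3, a guanine nucleotide exchange factor for ARF GTPases, they were 2487, 660, 1025 and 644. The ORC6 promoter region stood far above these, with 10020, 10872, 9341 and 10704, and lay between the 99.3 and 99.6 percentiles of its lists.

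Over the full windows of 300 bases, the 37 promoters at weakened regions held a median of 6 CpG, with quartiles at 2 and 10 and a range from 1 to 41. The median over 13411 promoters at any shared region was 27, and over all 22011 promoters of the table it was 21. The gap was of like size against promoters in a like range of peak strength. Among 3385 promoters at other shared regions whose untreated siGl3 percentile lay in the same range as the weakened regions (32.7 to 80.4, their 5th to 95th percentile), the median was 25. Strength was not matched within that range, and the 37 promoters were not limited to it. Median GC content was 56.0% at weakened regions and 66.0% in both the same-range and the shared-region promoters. No promoter on chromosome 8 was used, so the 264 weakened regions there could not enter these counts. The promoter table matched 15811 of the 19970 coding genes. Shares set beside all shared regions are given below for gene starts, not for these windows.

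**Figure D1:**
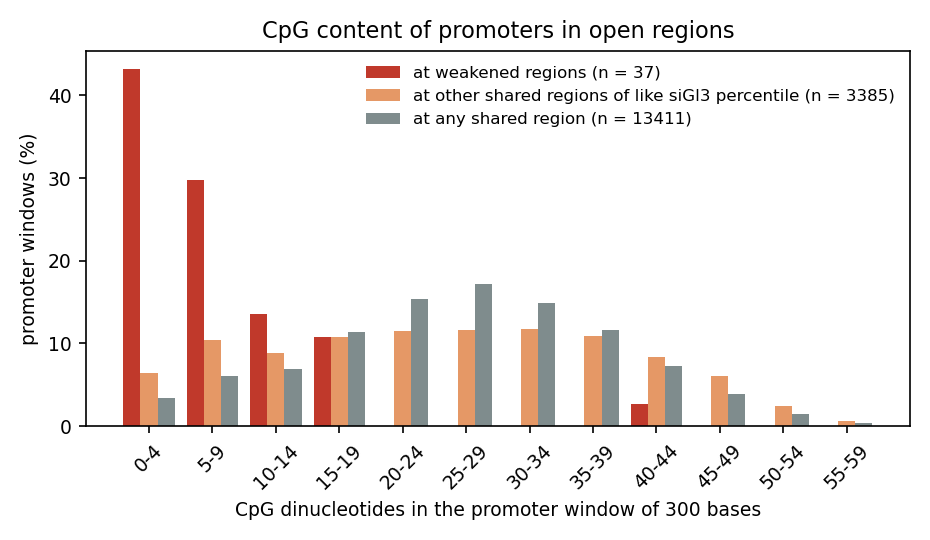
CpG dinucleotides per promoter window of 300 bases (x axis, in bins of 5) against the percent of windows (y axis), for 37 promoters at weakened regions, 3385 at other shared regions in a like range of siGl3 percentile and 13411 at any shared region. The windows at weakened regions pile up below 10 CpG, while the other sets spread around medians of 25 and 27.

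Short motifs also differed. GGGCGG, a core of SP and KLF factor sites (both strands searched), occurred in 9 of the 37 windows (24.3%), against 68.0% of same-range and 71.6% of shared-region windows. CCGGAAG, a core of ETS factor sites, occurred in 0 of 37, against 14.7% and 18.3%. TGANTCA, the element of AP-1 (FOS and JUN dimers), occurred in 6 of 37 (16.2%) against 5.97% and 5.26%, and GGAATG, a core of TEAD sites, in 9 of 37 (24.3%) against 11.6% and 10.9%. In all, 14 motifs were searched, and these 4 were picked out after their values were seen; CCAAT, the NF-Y element, differed little, at 11 of 37 (29.7%) against 29.1% and 34.9%. Of the 4, the first pair contains CpG and the second does not. TGACNNNGC, the antioxidant response element, needs no CpG and was also rarer, at 1 of 37 (2.70%) against 14.2% and 14.9%. All of these are letter matches in few windows, not binding sites.

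The rule fixed the sign and the least size of the differences between siOrc6 and siGl3, so these are given as description. The median weakened region stood at the 57.2 percentile in untreated siGl3 and the 29.2 percentile in untreated siOrc6. With H2O2 the medians were 52.6 and 26.1. By median, weakened regions thus stood near the middle of the siGl3 lists, and the rule itself placed them lower in the siOrc6 lists. All shared regions had medians of 64.5, 62.7, 60.3 and 58.4 in the same order.

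**Figure D2:**
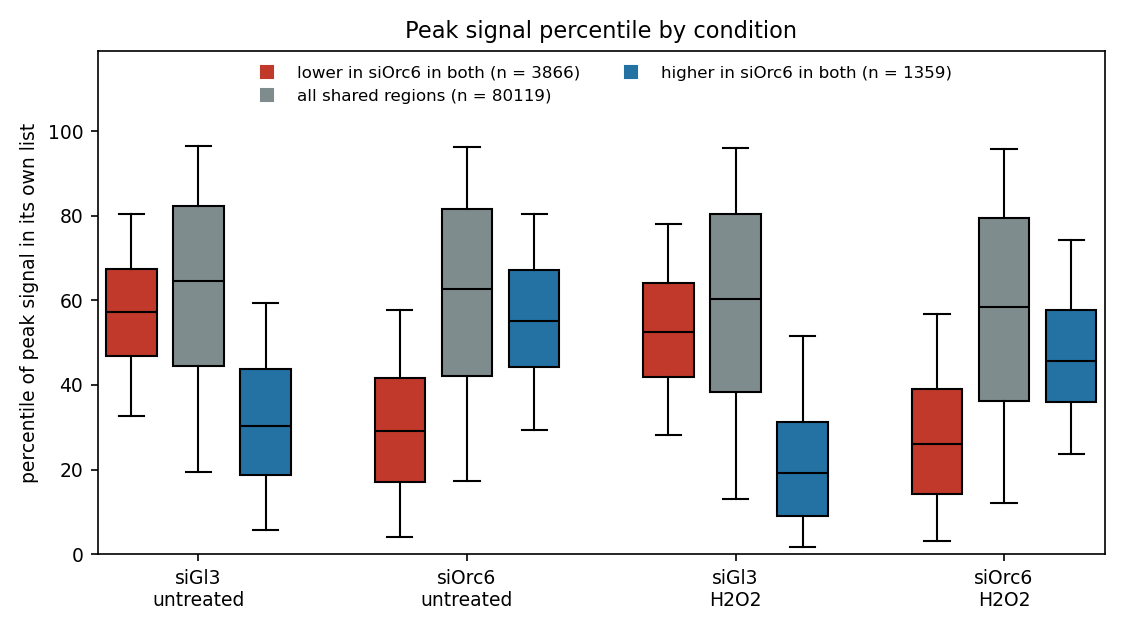
Percentile of peak signal within its own list (y axis, 0 to 100) in the 4 conditions for 3866 weakened, 80119 shared and 1359 strengthened regions. Boxes show quartiles with the median and whiskers the 5th and 95th percentiles over regions; the weakened regions sit at medians of 57.2 and 52.6 in siGl3 and 29.2 and 26.1 in siOrc6.

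In signal units, the median weakened region had 985 in untreated siGl3 and 467 in untreated siOrc6, and 841 and 431 with H2O2. The median difference was −24.6 points without H2O2 and −23.6 with it, and reached −81.1 and −80.4 at the far end. Over all shared regions the medians were −0.49 and −0.59. Both differences were at least 30 points in 485 members and at least 50 in 12.

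Each treatment alone gave about the same number of lower regions, and roughly the same part of each was lower in the other. A difference of at least 15 points was found at 7840 shared regions without H2O2 and at 7289 with H2O2, so that the 3866 members make up 49.3% of the first and 53.04% of the second. Opposite calls were rare, at 90 regions lower without and higher with H2O2, and 107 the other way. Within members, the 2 differences lay within 10 points of each other at 2636 regions (68.2%). That was a smaller share than the 76.0% of all shared regions. Among other shared regions in the same siGl3 range it was 72.5%. The difference without H2O2 was the more negative one at 2128 members (55.0%), against 50.9% of all shared regions. Each treatment had its own libraries, numbered after the same 2 batches, and no batch could be separated here.

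**Figure D3:**
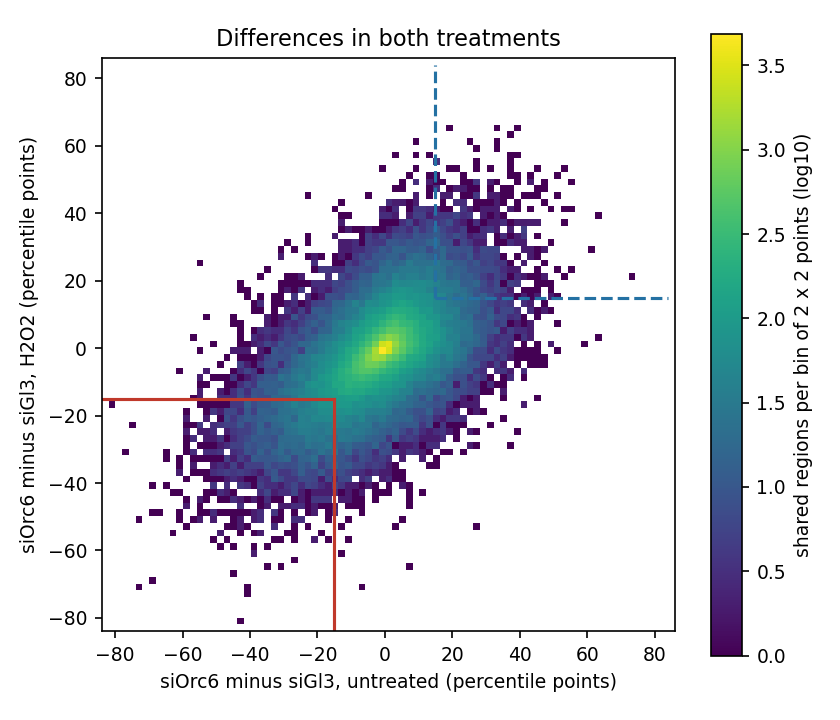
Difference in percentile, siOrc6 minus siGl3, without H2O2 (x axis, points) and with H2O2 (y axis, points) for 80119 shared regions, coloured by the log10 number of regions per bin of 2 × 2 points. The solid lines bound the 3866 weakened regions at lower left and the dashed lines the 1359 strengthened regions at upper right.

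The lists differ in length, from 97816 peaks on chromosomes 1 to 22 and X in siOrc6 with H2O2 to 115292 in untreated siGl3, and a percentile is a place in its own list rather than an amount. When the shared regions alone were ranked, so that the 4 rankings were equally long, 3258 regions were lower and 2027 higher in both treatments, and 2946 of the 3866 members (76.2%) met the rule again. That setting moved the lower share of all regions called in one direction from 74.0% to 61.6%. The size of the excess of weakened over strengthened regions thus depends on the ranking used.

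Regions just inside the threshold were those nearest to DIAPH3 (difference with H2O2 −15.0005), SOX9 (without H2O2 −15.0079) and TLE3 (with H2O2 −15.0065). Just outside were those nearest to KLHL42 (−14.9967 with H2O2), at the end of MFSD2A (−14.9962 with H2O2) and inside KIAA1217 (−14.999 without H2O2). The threshold cuts through a continuum.

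Weakened peaks were narrower and less significant by the caller's own measure. Width and −log10 p come from the same lists as the rule. How far the caller's signal itself rests on width or −log10 p was not examined. The values below may therefore restate the selection and are no separate support for it. The median width of the best peak was 532.5 bp in untreated siGl3 and 363 bp in untreated siOrc6, and 477 bp and 330 bp with H2O2. The ratio of siOrc6 to siGl3 width had a median of 0.757 without and 0.777 with H2O2, against 1.01 and 1.02 over all shared regions. The siOrc6 peak was the narrower one in both treatments at 3453 members (89.3%), against 24.1% of all shared regions. The caller's −log10 p at the peak had medians of 7.56 and 5.999 in untreated siGl3 and siOrc6, and of 7.29 and 5.86 with H2O2. Ranked by −log10 p in place of signal, 2931 members (75.8%) were again at least 15 points lower in both treatments, where 5.36% of all shared regions were. In 3548 members (91.8%) each list held exactly 1 peak, against 90.5% of all shared regions. At 3801 members (98.3%) the 4 best peaks shared at least 1 base, against 99.3%. The siOrc6 list held more peaks than the siGl3 list in 3.98% of members without H2O2 and 3.31% with it. Over all shared regions these shares were 1.82% and 1.68%. The part that splitting of peaks has in the differences was not tested.

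The authors' own lists of changed regions rest on the same contrast, and overlap with them is a description. Of the weakened regions, 1339 (34.6%, 95% Wilson interval 33.2% to 36.1%) overlapped a region that the authors' deposited table gave as lower in siOrc6 without H2O2, where 2.78% of all shared regions did. With H2O2 the authors' deposited table of lower regions touched 292 (7.55%, interval 6.76% to 8.43%), against 0.429% of all shared regions. Both tables listed 253 of them, and 2488 (64.4%) were in neither. Listing went with the strength of the control peak: 4.96% of members between the 30 and 40 percentiles of untreated siGl3 were listed as lower without H2O2, and 83.7% of those between 80 and 90. The median untreated siGl3 percentile was 72.8 for members listed in both treatments and 51.9 for those in neither. Their median mean differences were −35.4 and −23.2 points.

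In the other direction, 6 weakened regions overlapped a region listed as higher in siOrc6 without H2O2, against 6.58% of all shared regions, and 0 overlapped one listed as higher with H2O2, against 0.695%. These 6 lay in ELAVL1, PRKCH and SYBU and nearest to CRYBA4, C1QTNF8 and PGRMC2, and were picked out after their values were seen. The PRKCH region (chr14:61462665-61463329), in the gene of a protein kinase C isoform, had signals of 1146 and 706 in untreated siGl3 and siOrc6, so that the peak list and the authors' deposited table differ in direction there. The ELAVL1 region had 786 and 423. The threshold and the counts behind that table were not analysed here.

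The strongest differences were away from gene ends. The first of all lay 17.8 kb from CCL22, which encodes a chemokine that attracts T cells (chr16:57339460-57340135), with signals of 1837 in untreated siGl3, 220 in untreated siOrc6, 1742 in siGl3 with H2O2 and 229 in siOrc6 with H2O2. Its percentiles were 75.6, 3.36, 74.6 and 4.36. Both siOrc6 values lie close to the weakest peak of their lists, just above 200. Next was a region 17.2 kb from SPRY4, an inhibitor of receptor tyrosine kinase signalling (chr5:142342199-142343009), with 1645, 217, 1642 and 230. A region 297 kb from PTGER4, a receptor for prostaglandin E2, had 1926, 217, 1648 and 384. There each siGl3 list held 1 peak and each siOrc6 list held 2, of which only the best was counted. These regions were low in siOrc6 in both treatments.

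The region 76.5 kb from FER, a cytoplasmic tyrosine kinase, had 3333 and 776 without H2O2 and 2860 and 235 with it, the largest difference of any weakened region with H2O2 (−80.4 points). At 117 kb from TSN, which encodes translin, a DNA- and RNA-binding protein, the signals were 1888 and 242 without H2O2 and 1925 and 453 with it. These 5 regions were listed as lower in both treatments in the authors' deposited tables. Of the next 5 by mean difference, those inside TTLL5, a tubulin polyglutamylase, and AGTR1, the angiotensin II receptor, and those nearest to COL22A1 and LYPD2 were also listed in both. The region nearest to PLPPR4 was listed without H2O2 only. At the COL22A1 region each siGl3 list held 1 peak, while siOrc6 held 2 without and 3 with H2O2. None of these 10 lay at a gene end, but only 4.14% of all weakened regions did, so little can be read from that.

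Position relative to genes was not used by the rule. Only 160 weakened regions (4.14%, interval 3.55% to 4.81%) lay at a gene end, that is up to 1 kb from where a protein-coding gene starts or stops in the annotation, against 17.5% of all shared regions and 12.1% of strengthened ones (164 of 1359, interval 10.4% to 13.9%). Strong peaks are more often at gene ends, and weakened regions were mid-strength. Among other shared regions in the same siGl3 range, 11.1% (4861 of 43602, interval 10.9% to 11.4%) were at a gene end. Counting gene starts alone, and leaving out chromosome 8, for which no starts were used here, the shares were 2.11% of weakened, 8.71% of same-range and 14.9% of all shared regions. All intervals treat regions as independent, cover counting error only, and leave out any difference between libraries.

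By strength in untreated siGl3, the share of shared regions that were weakened was highest between the 50 and 60 percentiles, at 9.46% (963 of 10180), and was 0.14% above 90. A region in the lowest 15 percentiles could not meet the rule. At the threshold of 15 points, the signals near SOX9 were 838 and 585 in untreated siGl3 and siOrc6. Near TLE3 they were 1475 and 1010 with H2O2. Equal steps in percentile are therefore not equal steps in signal, and the rule itself shapes these shares. In each bin from 40 to 90, between 3.15% and 5.98% of weakened regions were at a gene end, against 8.50% to 25.2% of the other shared regions. Between 30 and 40 the shares were closer, 6.53% and 7.90%.

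**Figure D4:**
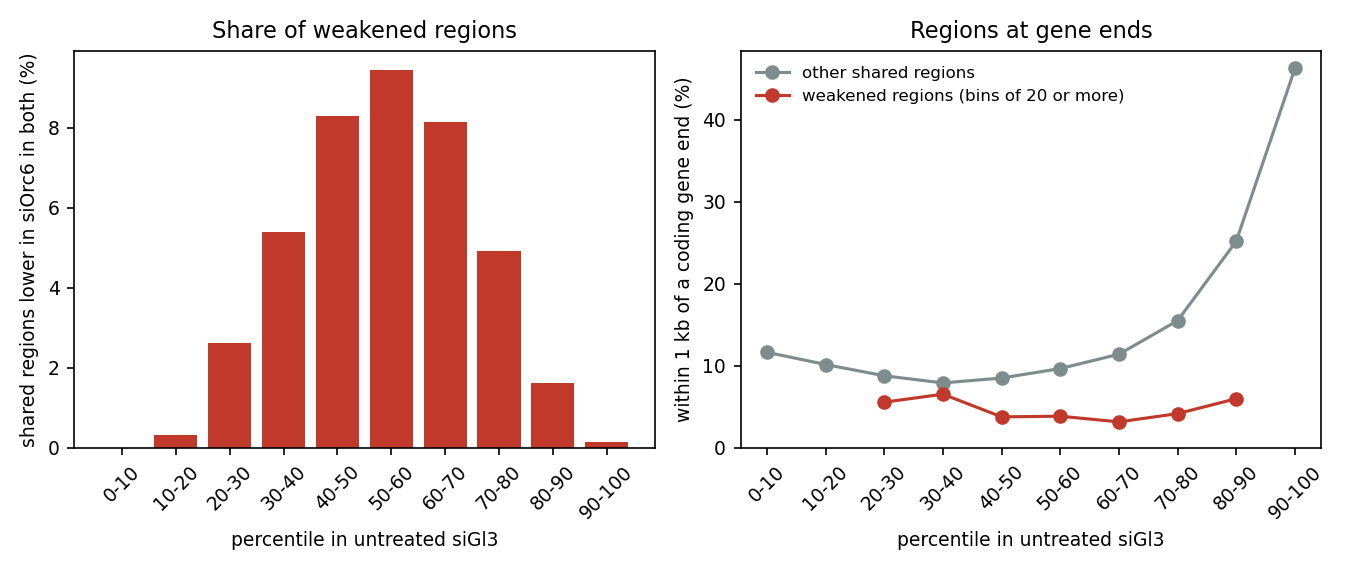
Left: percent of shared regions that were weakened (y axis) by percentile in untreated siGl3 (x axis, bins of 10), highest at 9.46% between 50 and 60. Right: percent of regions within 1 kb of a coding gene end (y axis) for weakened regions, in bins with 20 or more of them, and for other shared regions; the weakened line lies below the other in each bin shown.

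Inside the body of a coding gene lay 1889 weakened regions (48.9%), close to the 49.6% of same-range regions and below the 53.7% of all shared regions. The other 1977 had a median distance of 44.6 kb to the nearest coding gene. Away from chromosome 8, 84.1% of weakened regions were over 10 kb from any coding gene start, against 77.6% of same-range and 72.0% of all shared regions. In these lists weakened regions were mostly distal.

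The exceptions at gene ends began with a region at the ends of CCDC13 and HHATL (chr3:42703762-42704843), with signals of 1422 and 255 without H2O2 and 960 and 382 with it. CGN, which encodes the tight junction protein cingulin, followed with 1215 and 244, and 1095 and 430. At ADGRB2, an adhesion G protein-coupled receptor, they were 1753 and 386, and 1787 and 603. After GGT1 and its neighbour LRRC75B came UQCC1, an assembly factor of respiratory complex III, FBXL16, PDLIM4 and PRSS22. Of the first 12 at gene ends, only the regions at CCDC13, GGT1 and TPM4 lay within 1 kb of a gene start used here.

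PDLIM4, an actin-binding PDZ and LIM domain protein, had a wide region (3015 bp) just outside its end. Its signals were 2703 and 923 without H2O2 and 2274 and 561 with it. Each list held 1 peak there, except siOrc6 with H2O2, which held 2. The last of the first 12 were KIFC3, a kinesin, RGS10, a regulator of G protein signalling, TOM1, an endosomal sorting protein, and TPM4, an actin-binding tropomyosin. At the TPM4 start (chr19:16067197-16067580) the signals were 594 and 209, and 927 and 410. Among promoters with smaller differences was that of IL1B, the inflammatory cytokine interleukin 1 beta, with 1488 and 923 without H2O2 and 679 and 433 with it, a gene named here after its values were seen.

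Few shared regions lay at genes of the origin recognition complex and of ISWI, so little can be read from their counts. Over each gene and 5 kb on both sides, ORC1, ORC2, ORC3, ORC4, ORC5 and ORC6 held no weakened region, nor did SMARCA5, BAZ1A and BAZ1B. SMARCA1 had no shared region there. At an ORC2 region (chr2:200966857-200967162) the differences were −17.3 points without and −5.27 with H2O2, so that it met the rule in 1 treatment. The ISWI list as a whole had 1 weakened region among 36 shared ones (2.78%, interval 0.49% to 14.2%), an interval that includes the 4.83% of all shared regions. It lay inside BPTF, the large subunit of the NURF remodeller (chr17:67942890-67943205), with 558 and 207 without H2O2 and 622 and 272 with it. The region at the BPTF gene end differed by 3.54 and −0.48 points.

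Among 52 shared regions at replication origin genes, 1 was weakened (1.92%, interval 0.34% to 10.1%). It lay inside TOPBP1, a scaffold that activates the ATR checkpoint kinase and takes part in origin firing, with 937 and 385 without H2O2 and 786 and 291 with it. Replication fork genes had 3 of 77: POLD2, a subunit of DNA polymerase delta (721 and 256, and 658 and 369), LIG1, DNA ligase 1 (528 and 299, and 410 and 263), and a region within 5 kb of TIPIN, a fork protection factor (394 and 220, and 544 and 379), which lies inside MAP2K1. Mismatch and excision repair genes had 3 of 64, at SMUG1, at XRCC1 and within 5 kb of NEIL1, the last inside MAN2C1.

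The gene lists were drawn up with earlier results of these data known, so counts are read only beside the 4.83% of all shared regions. Among lists with at least 100 shared regions, the highest shares were at YAP and TEAD, actin and adhesion, and collagen genes. YAP and TEAD genes, which act in and answer to the Hippo pathway, had 12 of 156 shared regions weakened (7.69%, interval 4.45% to 12.96%). GLI2 held 4 of these 12, out of 26 shared regions in that gene, the first with 1412 and 566 without H2O2 and 1265 and 318 with it. LATS2, a Hippo kinase, had 2183 and 736, and 945 and 532, and TEAD4, a DNA-binding partner of YAP, had 879 and 392.1, and 1308 and 718. The interval includes the share over all shared regions.

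Actin, adhesion and migration genes had 20 of 282 (7.09%, interval 4.64% to 10.7%), spread over 10 genes. ACTN4, an actin crosslinker, held 2, the first (chr19:38656218-38657092) with 2278 and 584 without H2O2 and 2050 and 289 with it. ACTN1 also held 2, the first with 2535 and 399, and 3216 and 1466. TLN2, a talin that links integrins to actin, held 3, and PARD3, a polarity protein, held 4 of 39. The authors' deposited tables listed 10 of the 20 as lower without H2O2 and 1 with it. Median differences over all 282 regions were −0.90 and −0.56 points.

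Collagen genes had 11 of 180 (6.11%, interval 3.45% to 10.6%). COL22A1, which is expressed at tissue junctions, held 4 of 32, and COL4A2, a basement membrane chain, held 2. COL13A1 held 1, with 890 and 281 without H2O2 and 1166 and 349 with it. The authors' deposited tables listed 4 of the 11 as lower without H2O2 and 1 with it. TGF-beta and matrix genes gave 7 of 144 (4.86%), with LTBP2, SMAD3, TGFB2 and SMAD6 among the genes that held 1. At SMAD6, an inhibitory SMAD, the signals were 2976 and 1476, and 3463 and 1708.

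Long genes at fragile sites, which break readily under replication stress, had 17 of 306 (5.56%, interval 3.50% to 8.72%). PTPRN2, DLG2 and MACROD2 held 3 each, and AUTS2 and PARD3B 2 each. The PTPRN2 region was listed as lower in both treatments in the authors' deposited tables, with 1123 and 415 without H2O2 and 1316 and 515 with it. WWOX, a fragile site tumour suppressor, held 1 of 21. Neuronal genes had 13 of 302 (4.30%), 6 of them in RBFOX1, a splicing regulator, and 3 in RBFOX3.

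Several regulatory lists had none: 0 of 78 at AP-1 and immediate-early genes, 0 of 72 at SWI/SNF and other remodellers, 0 of 52 at HOX genes, 0 of 44 at double-strand break repair genes, 0 of 38 at interferon and inflammatory genes and 0 of 37 at replication-dependent histone genes. Upper Wilson bounds of these shares ran from 4.69% for AP-1 to 9.41% for histones, so that for the 5 lists other than AP-1 a share equal to the 4.83% over all regions lies within the interval. The AP-1 list had strong control peaks, with a median untreated siGl3 percentile of 88.0, where few regions of any kind were weakened, and the medians of the other 5 lists ran from 63.8 to 83.8.

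Cell-cycle genes had 2 of 74, at BUB1, a spindle checkpoint kinase, and near E2F1. Growth factor genes had 6 of 145, at HBEGF, NRG1, EGFR, ERBB2 and IGFBP2. WNT genes had 3 of 113 (TCF7, WNT7B and ZNRF3), antioxidant genes 2 of 78 (PGD and OSGIN1), p53 targets 1 of 53 (near CDKN1A) and osteoblast genes 1 of 73 (BMPR1A). At EGFR the signals were 1624 and 965 without H2O2 and 1299 and 715 with it. Markers of other cell types gave 4 of 61 for endothelium (VWF, TIE1 and FLT1) and 2 of 32 for epithelium (CDH1 and OVOL1). For muscle they gave 2 of 19 (in MYOCD and near DES), and for blood 1 of 18 (IKZF1). Accessibility at a marker gene does not show its expression, and no cell type was read from it.

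**Figure D5:**
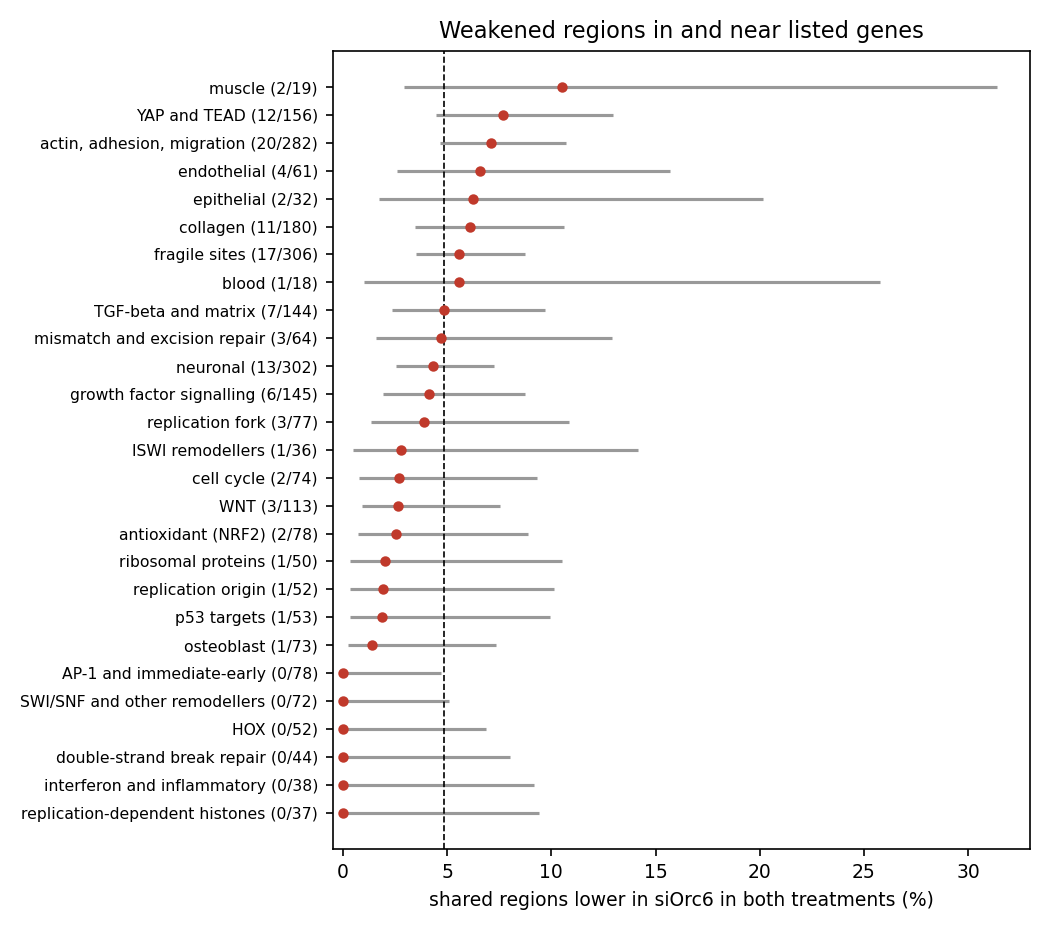
Percent of shared regions that were weakened (x axis) in each of 27 gene lists, over each gene and 5 kb on both sides, with counts in brackets and 95% Wilson intervals. The dashed line marks the 4.83% of all shared regions, and the intervals of most lists cross it.

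Genes were ranked by the number of weakened regions they held, so the shares at the first ones are a description, to be set beside the 4.83% of all shared regions. Among 19970 coding genes, 1814 had at least 1 within the gene and 5 kb on both sides, 106 had 3 or more and 15 had 5 or more. MAD1L1, a spindle checkpoint gene at the end of the short arm of chromosome 7, held 10 of 42 shared regions, and CHLSN on the same arm 9 of 30. ADGRB1, an adhesion G protein-coupled receptor on distal chromosome 8, held 8 of 24, and KIAA1671 on chromosome 22 held 8 of 38. Another 6 genes held 6 each. These were 6 of 19 shared regions at PRKCB, a protein kinase C gene, 6 of 17 at CAMK2B, a calcium/calmodulin-dependent kinase, and 6 of 27 at CDH23, a cadherin of hair cells. At ZMIZ1, a transcriptional coactivator, they were 6 of 34, at FSTL4 6 of 38 and at RBFOX1 6 of 63 (9.52%).

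The median differences of the 10 regions at MAD1L1 were −26.3 points in each treatment, and those of its 32 other shared regions −1.49 and −2.47. At PRKCB the 6 weakened regions had medians of −42.3 and −29.4, while its other shared regions had 2.75 and 0.52. At CAMK2B the others were also lower, at −8.97 and −8.55, and so were those at ADGRB1, at −6.21 and −4.39. None of the 19 regions at MAD1L1 and CHLSN was in an authors' table of lower regions, whereas 4 of 6 at PRKCB and 4 of 8 at KIAA1671 were listed without H2O2. The widest weakened regions were 2 inside ADGRB1 (6345 bp and 5031 bp) and one 60.2 kb from UNCX (4746 bp). In the latter the best peak had 2047 and 738 without H2O2 and 2988 and 787 with it. Its widths were 2100 and 949 bp, and 3430 and 1013 bp. In each of these widest regions the siOrc6 list held more peaks than the siGl3 list in both treatments.

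By chromosome, the share of shared regions that were weakened ran from 2.56% on X (39 of 1525, interval 1.88% to 3.48%), 3.23% on 19 and 3.25% on 13 to 6.04% on 16, 6.19% on 7 and 6.22% on 8 (264 of 4242, interval 5.54% to 6.99%). Windows of 2 Mb were ranked by the number of weakened regions they held, so the shares in the first ones are a description. The window from 142000001 to 144000000 on chromosome 8, which holds ADGRB1 and LYPD2, had 41 of 227 shared regions weakened (18.1%), and that from 1 to 2000000 on chromosome 7 had 39 of 243 (16.05%). In the first, 7 of the 41 were listed as lower without H2O2 in the authors' deposited table, and in the second none. Over all shared regions of the first window, the median differences were −6.67 points without and −6.54 with H2O2, against −1.17 and −1.35 on all of chromosome 8. In the second they were −4.63 and −5.10, against −0.66 and −0.91 on all of chromosome 7. Of 1456 windows with a shared region, 1068 held at least 1 weakened region and 44 held at least 10. Over the 1195 windows with at least 20 shared regions, the median share weakened was 4.12%, and 188 of them held none.

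Shared regions beside a weakened one that were not members themselves were slightly lower too. Within 10 kb, 4048 such regions had median differences of −1.67 points without and −1.81 with H2O2. Over 500 kb away, 18833 regions had 0.15 in each treatment, and all 76253 other shared regions had −0.24 and −0.36. With equally long rankings these medians were −0.89 and −0.88 within 10 kb, and 1.46 and 1.39 beyond 500 kb. The differences at neighbours are small beside the 15 points of the rule. A weakened region had a median distance of 126 kb to the next one, and 406 (10.5%) had another within 10 kb.

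For weakened regions, the rule set a least size of 15 points for the difference between siRNAs but none for the shift with H2O2. The sizes of these contrasts at weakened regions therefore cannot be compared. Over all shared regions, the median difference between siRNAs was −0.49 points without H2O2 and −0.59 with it. With equally long rankings it was 0.25 and 0.16. In siGl3 the median percentile difference of weakened regions, H2O2 minus untreated, was −3.92 points, against −2.66 for all shared regions. In siOrc6 it was −2.57 against −2.52. With equally long rankings the medians in siGl3 turned to 0.69 for weakened regions, against −0.20 for all, so the sign rests on list length. The spread was wider in siOrc6 than in siGl3. In siOrc6, 751 weakened regions (19.4%) were at least 15 points lower with H2O2 and 437 (11.3%) at least 15 points higher. Over all shared regions these shares were 12.96% and 4.10%. In siGl3, 552 weakened regions (14.3%) were lower and 166 (4.29%) higher by as much, against 14.1% and 4.70% of all shared regions. The rule bounds these siOrc6 values, so the shares are a description.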

How the data were processed

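Data were 8 ATAC-seq libraries of U2OS cells in 4 groups of 2, deposited as 1 peak list per group, plus 4 lists of changed regions. Per the submitters' processing notes, Bowtie2, SAMtools, Picard, Genrich, deepTools, edgeR and bcl2fastq 2.20 were used with build hg38; their roles, thresholds, the handling of duplicates and any read shift for the transposase are not given in the sources used here. The authors' deposited peak lists give a peak signal and a −log10 p value per peak; the lists of changed regions give positions only. No count, fold or depth per library was used.

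Peaks on chromosomes 1 to 22 and X were merged where they overlapped (peaks elsewhere, 147 to 168 a list, entered the ranking only), and percentiles were ranks of signal within a list, scaled from 0 to 100. Gene ends came from a RefSeq table of 19970 coding genes (GRCh38.p14), without strand; strand and starts came from its promoter table, which matched 15811 of them. Region sequence beyond promoter windows was not analysed here. Of 608 listed genes, 607 were found.

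The members, gene lists and rules were chosen with earlier results of these data known. Named genes are the ORC subunits, SMARCA5, SMARCA1, BAZ1A and BAZ1B; the 10 regions, and the 12 at gene ends, with the largest mean difference; the 10 genes with most members; up to 4 genes per list; the 3 widest members; and 3 regions on each side of the threshold. A few items under that rule are left out of the text. Names beyond 4 per list were chosen after their values were seen. The code was tested on simulated peak lists. Tools were pandas 2.3.3, numpy 2.4.6, scipy 1.17.1, matplotlib 3.10.9 and Python 3.11.15.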

Additional observations from a re-analysis of the deposited data

How the results depend on the processing

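No paired analysis was possible because each condition has 1 list that pools both libraries; for the same reason no library could be left out. The number of weakened regions was 7398 with a threshold of 10 points and 2048 with 20, and between 3258 and 4289 in the other 8 settings. The share listed as lower by the authors was 23.6% and 46.3% without H2O2 at thresholds of 10 and 20 points, and 41.6% with percentiles among shared regions only; with H2O2 it was 4.22%, 12.6% and 9.02%. The share at gene ends was 9.75% with a window of 3 kb (23.7% of all shared regions) and 2.11% for gene starts without chromosome 8, and between 3.75% and 4.53% in the other 10 settings. Restricting to regions whose 4 best peaks share a base and leaving out chromosome 8 were chosen after seeing the data. GC content of the regions, which needs a genome, was not run. Depth is unknown, so how far weak peaks near the lowest listed signal limit the siOrc6 values was not tested.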
